A study of Homo sapiens with 6 samples.

Results

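The genes described here encode the presynaptic vesicle and its release machinery, 38 genes chosen by symbol for their known role in the synapse. All 38 were found among the 60651 genes counted in each of 6 neuroblastoma libraries. In 3 libraries the titles name ethanol (EtOH), the vehicle, and in the other 3 they name tetracycline (Tet), which per the labels was given for 5 days to induce *MYCN*. The labels do not settle on a cell model. Titles and file headers name IMR-5/75, a *MYCN*-amplified neuroblastoma line, and a tag names a knockdown, with the values Control and Induction. The protocol text instead describes SK-N-SH, a line without that amplification, carrying a tetracycline-inducible *MYCN* expression system with the tetracycline repressor and kept as single clones under G418 and blasticidin, while the study's methods describe an SK-N-AS expression model and IMR-5/75 with an inducible *MYCN* shRNA. By the protocol text tetracycline would raise *MYCN*, and by the knockdown tag it would lower it. Only the titles were used to form groups. Tet and EtOH below mean the libraries labelled so, with no direction of *MYCN* implied.

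At a nerve terminal, vesicles are filled with transmitter, docked and primed at the active zone, and fused with the membrane when calcium enters. Fusion is driven by SNARE proteins, which zip vesicle and plasma membrane together, and is timed by synaptotagmins, the calcium sensors, with complexins as clamps and helpers. RAB3 proteins and the RIM, UNC13, bassoon and piccolo scaffolds bring vesicles to the release site, synapsins hold the reserve pool, and dynamin, amphiphysin and synaptojanin recover vesicle membrane afterwards. Neuroblastoma arises from the sympathoadrenal lineage, whose cells release catecholamines through the same machinery from dense-core vesicles. Bulk RNA cannot tell fewer cells that express a gene from less of its RNA per cell.

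Libraries held between 27933378 and 40498065 counts, so that 3 counts, the limit set by a count of 0, amounted to 0.0741 to 0.107 CPM. CPM is the count scaled to a common library total, here after TMM normalisation. *MYCN*, the gene the treatment was meant to change, was at 157.9, 256.3 and 155.9 CPM in EtOH and at 196.6, 200.1 and 145.4 CPM in Tet. The groups overlapped, and the difference did not pass the test in either direction (log2 fold change -0.07, SE 0.23, edgeR adjusted p = 0.956), so the level of *MYCN* did not check the labels. Of 10 markers of noradrenergic neuroblastoma, 7 reached 1 TPM (counts per transcript length at a common total) in some library, while *TH*, tyrosine hydroxylase, was under 0.1 TPM in all 6. Their summed level was 537.2 to 575.4 TPM in EtOH and 607.4 to 690.0 TPM in Tet. Of 12 mesenchymal markers 9 reached 1 TPM, summing to 127.4 to 247.2 TPM in EtOH and 116.6 to 176.5 TPM in Tet, with *FOSL1* and *COL1A2* under 0.1 TPM everywhere. The 8 glial markers summed to 3.17 to 3.50 TPM in EtOH and 1.93 to 4.33 TPM in Tet, with *S100B* and *GFAP* under 0.1 TPM everywhere. The part of these markers in the values below was not tested.

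Release machinery was present at very unequal levels (plot of TPM by gene). *SYT1*, the fast calcium sensor of synaptic vesicles, was the highest at a mean of 154.5 TPM over the 6 libraries, rank 497 among all genes. It was followed by *SYT11*, a synaptotagmin that lacks calcium binding, at 109.9 TPM, by the plasma membrane SNARE *SNAP25* at 61.5 TPM and by *SYT4* at 57.7 TPM. *RAB3C*, *SYPL1*, *SYNJ1* and *RAB3B* came next at 33.0, 30.7, 23.9 and 21.0 TPM. The ranges of neighbours in this order overlapped: *SYT1* spanned 111.1 to 189.3 TPM and *SYT11* 64.1 to 143.2 TPM, and *SNAP25* (38.9 to 72.7 TPM) and *SYT4* (26.4 to 82.9 TPM) overlapped fully. Within every library, though, *SYT11* was above *SNAP25* and *SYT4* above *RAB3C*, and *SYT1* was above *SYT11* except in Tet replicate 3. The order of the other neighbours changed between libraries. At the other end, *STX1A*, the syntaxin that partners *SNAP25*, averaged 0.285 TPM, and *SYT5*, *CADPS2* and *RPH3A* averaged 0.0267, 0.0128 and 0.00519 TPM. *SYT5*, *CADPS2* and *RPH3A* had 10, 6 and 4 counts over all 6 libraries, and *STX1A* had 86, of which 45 were in Tet replicate 3. These 4 genes fell under the filter on low counts, which left 34 of the 38 for testing. The summed level of the 38 genes was 638.4 ± 77.05 TPM in EtOH and 696.0 ± 47.26 TPM in Tet (SD, n = 3 each), with ranges that overlapped.

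**Figure D1:**
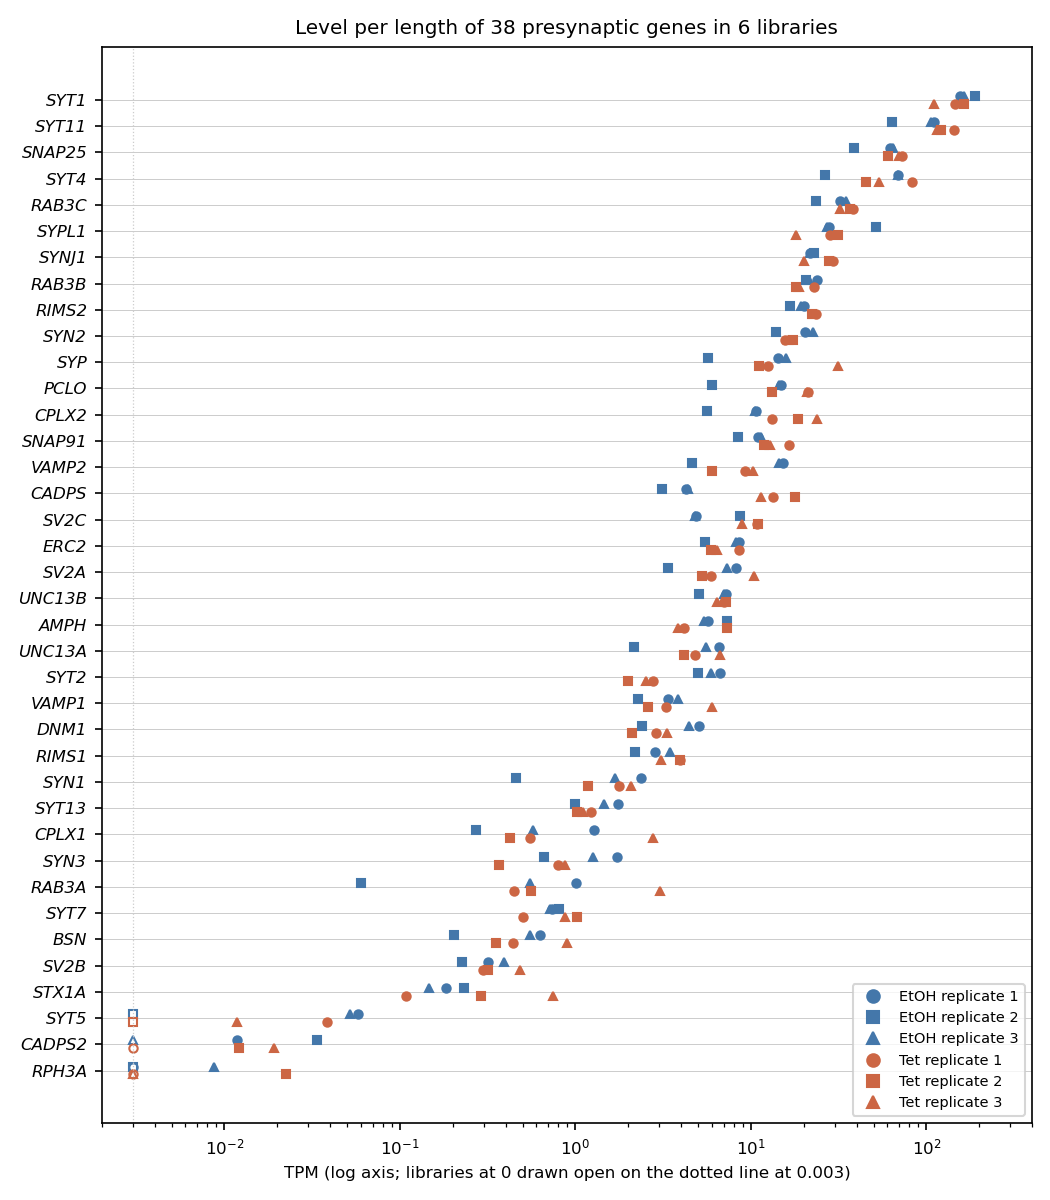
Level per transcript length of the 38 presynaptic genes, ordered by mean. The horizontal axis is TPM on a log scale, each point is a library (blue EtOH, orange Tet, symbol by replicate), and libraries at 0 are drawn open on the dotted line. *SYT1* stands at 111.1 to 189.3 TPM and *RPH3A* at or near 0, and EtOH replicate 2 (blue squares) lies left of the other EtOH libraries for most genes.

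Of the 34 genes tested, *CADPS* alone passed an adjusted p of 0.05 and was higher in Tet, and 0 passed as lower by edgeR (1 by DESeq2, *SYT2*, and 0 by limma-voom). Over all 22443 genes tested, 0.147% passed as higher and 0.0891% as lower. At an unadjusted p under 0.05, 4 of the 34 were higher (11.8%, against 5.83% of all genes) and 1 was lower (2.9%, against 4.94%). In 8 genes (23.5%) every Tet library lay above every EtOH library, against 9.2% of all genes, and in 1 gene (2.9%) every Tet library lay below, against 8.28%. The log2 fold change was above 0 in 23 of the 34 (67.6%, against 49.3% of all genes), and its median was 0.28, beside -0.01 over all genes. Without Tet replicate 3 the median was -0.06 and 14 of 34 genes were above 0, and without EtOH replicate 2 the median was 0.11. The study's methods describe its cell culture experiments in general as independent biological replicates, but the labels do not say whether the libraries of a group came from separate cultures, and p-values measure the spread between these libraries only.

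**Figure D2:**
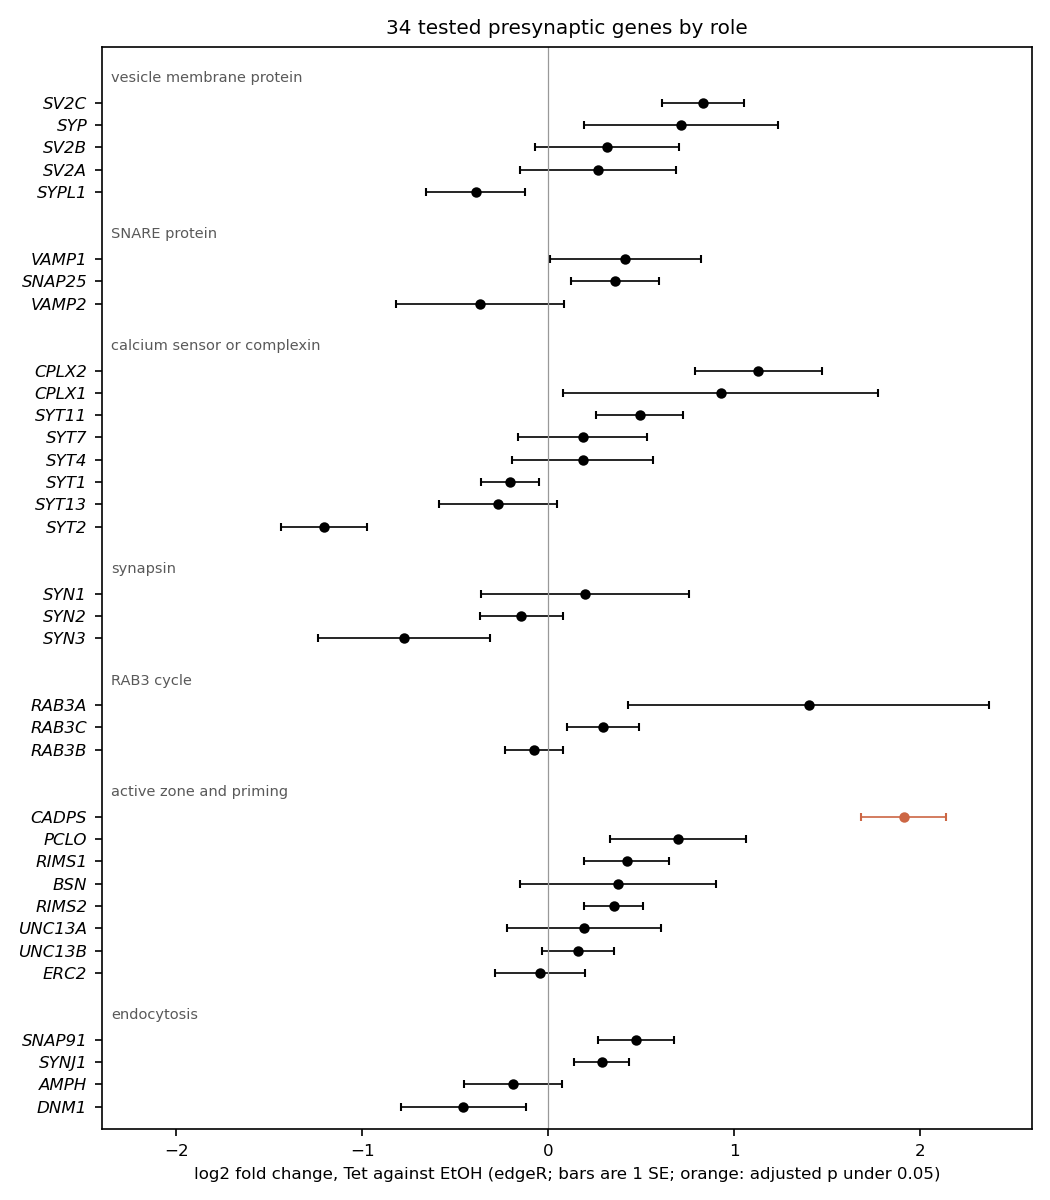
Log2 fold change of Tet against EtOH for the 34 presynaptic genes tested, grouped by role, from edgeR with bars of 1 SE. *CADPS* (orange, 1.91) is the only gene with an adjusted p under 0.05, and *SYT2* (-1.20) is the lowest.

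Among active zone and priming genes, *CADPS* rose and the others did not pass the test. *CADPS* encodes CAPS, a priming protein best known for dense-core vesicle release, and lies at chr3:62398346-62875416 on the minus strand of GRCh38. Its levels were 23.2, 15.5 and 23.8 CPM in EtOH and 69.5, 96.6 and 68.7 CPM in Tet. No Tet library came near the EtOH range. This was a 3.76-fold rise, or 1.91 on the log2 scale (SE 0.23, edgeR adjusted p = 0.0285). Leaving out a library moved it between 1.73 and 2.00, with an adjusted p between 0.00518 and 0.203, and the call held without EtOH replicate 2 and in none of the other 5 such fits. *CADPS2*, its paralog, was at 0 to 2 counts per library, so that *CADPS* made up at least 98.9% of the pair's TPM in each library.

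*RIMS2*, a RIM scaffold that tethers vesicles and calcium channels at the active zone, was at 104.2, 78.9 and 99.3 CPM in EtOH and 116.7, 114.5 and 129.0 CPM in Tet. The groups did not overlap, but the difference of 0.35 (SE 0.16) had an adjusted p of 0.477 by edgeR. Its relative *RIMS1* overlapped narrowly, EtOH replicate 3 being at 16.3 CPM and Tet replicate 3 at 16.0 CPM (0.42, SE 0.23, edgeR adjusted p = 0.569). *PCLO*, the piccolo scaffold, had 125.8, 46.7 and 122.2 CPM in EtOH and 171.1, 111.4 and 195.6 CPM in Tet. Tet replicate 2 lay under EtOH replicates 1 and 3, and the difference of 0.70 (SE 0.37) was not called (edgeR adjusted p = 0.558). The bassoon gene *BSN* (0.38, SE 0.53), the priming factors *UNC13A* (0.19, SE 0.41) and *UNC13B* (0.16, SE 0.19), and the scaffold *ERC2* (-0.05, SE 0.24) had changes smaller than their error.

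The calcium sensors and complexins held the lowest log2 fold change of the 34, in *SYT2*, and the highest after *CADPS* among genes above 1 CPM, in *CPLX2*. *SYT2*, the fast sensor that replaces *SYT1* at some synapses (chr1:202590596-202710454, minus strand), was at 19.4, 13.1 and 16.9 CPM in EtOH and 7.69, 5.70 and 8.05 CPM in Tet. All Tet libraries lay below all EtOH libraries, the only such gene of the 34. On the log2 scale the difference was -1.20 (SE 0.23, unadjusted p = 0.000687, adjusted p = 0.0917 by edgeR), which missed the threshold. Over the alternatives the adjusted p ran from 0.000534 (DESeq2) to 0.374 (edgeR without EtOH replicate 3), and without EtOH replicate 2 it was 0.0159. Of its exon bases, 27.03% lie in *PPP1R12B* on the opposite strand, and the counting ignored strand, so reads of the 2 genes cannot be told apart there.

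*CPLX2*, a complexin of brain synapses (chr5:175796310-175884021, plus strand), was at 27.8, 13.3 and 27.3 CPM in EtOH and 33.0, 48.0 and 68.7 CPM in Tet. The groups did not overlap, yet Tet spanned a wide range, and the change of 1.13 (SE 0.34) did not pass (unadjusted p = 0.00969, edgeR adjusted p = 0.264), though it did without the filter on low counts (adjusted p = 0.0423, in a range of 0.0415 to 0.580 over the alternatives). *SYT11* was at 211.5, 112.5 and 201.2 CPM in EtOH and 263.2, 230.2 and 245.1 CPM in Tet. Again no library overlapped, with EtOH replicate 2 far under the rest (0.49, SE 0.23, edgeR adjusted p = 0.513). *SYT1* was at 366.6, 409.3 and 382.6 CPM in EtOH and 330.5, 383.0 and 291.0 CPM in Tet, overlapping between groups (-0.21, SE 0.15, edgeR adjusted p = 0.715). *SYT4*, a synaptotagmin of dense-core vesicles, was at 109.5, 38.5 and 109.7 CPM in EtOH and 126.7, 71.9 and 94.4 CPM in Tet. Replicate 2 was the lowest library in each group, and the difference was 0.18 (SE 0.38). *SYT7* (2.17 CPM on average), *SYT13* (2.52 CPM) and *CPLX1* (0.887 CPM) were low and not called, and *CPLX1* had 2.67 CPM in Tet replicate 3 against 0.216 to 1.12 CPM elsewhere.

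**Figure D3:**
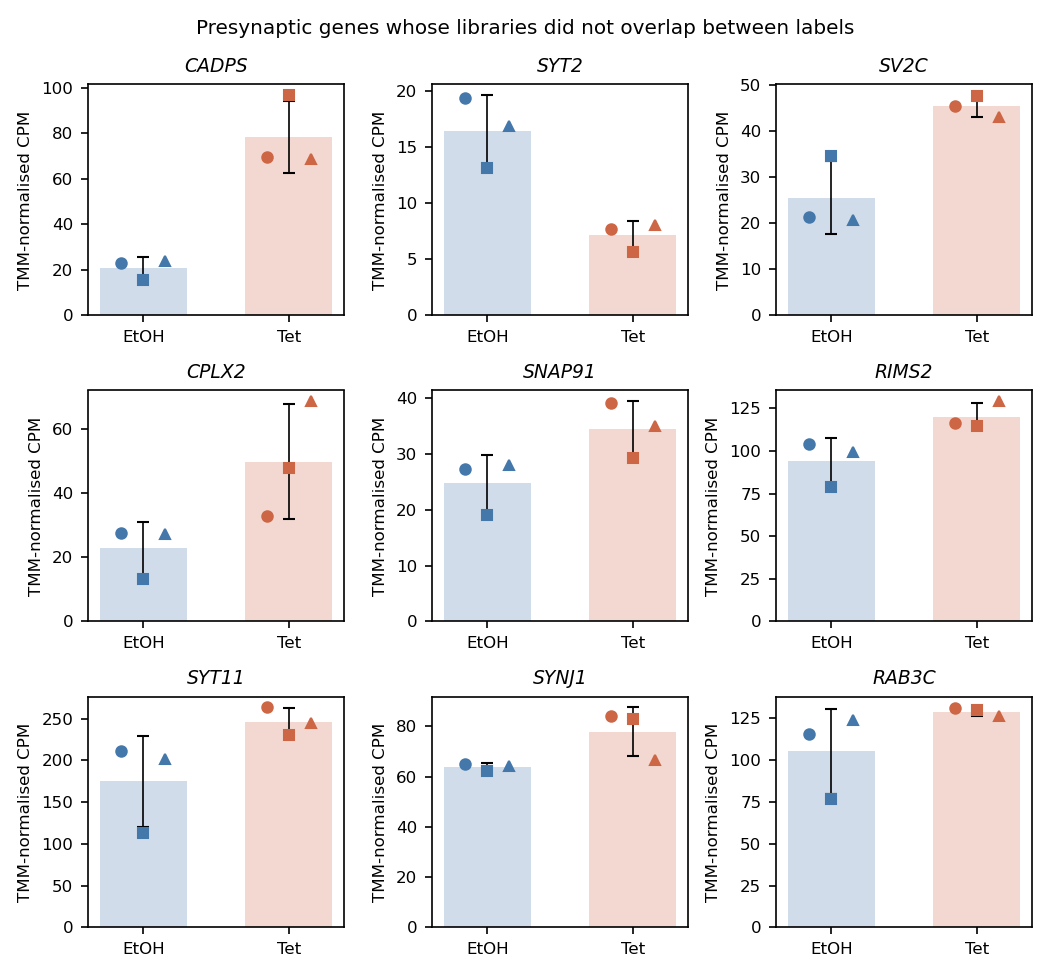
TMM-normalised CPM of the 9 presynaptic genes whose Tet and EtOH libraries did not overlap, 1 panel a gene with its own axis from 0. Bars are group means, error bars the SD (n = 3), and symbols mark replicates. *CADPS* goes from 20.8 to 78.3 CPM, *SYT2* from 16.5 to 7.15 CPM, and only *CADPS* passed the adjusted threshold.

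Of the vesicle membrane proteins, *SV2C* stood apart. The SV2 proteins are transporter-like glycoproteins of secretory vesicles, and *SV2C* lies at chr5:76083383-76353939 on the plus strand. It was at 21.3, 34.6 and 20.8 CPM in EtOH and 45.4, 47.6 and 43.0 CPM in Tet. All Tet libraries were higher, but EtOH replicate 2 was well above the other EtOH libraries, and the change of 0.83 (SE 0.22, unadjusted p = 0.00491) had an edgeR adjusted p of 0.203. Without EtOH replicate 2 it was 1.12, with an adjusted p of 0.00922. *SV2A*, the widespread member, and *SV2B* had changes of 0.27 (SE 0.42) and 0.32 (SE 0.39). *SYPL1*, a synaptophysin relative found in many tissues, was at 28.9, 48.8 and 27.7 CPM in EtOH and 27.9, 32.0 and 20.6 CPM in Tet. It was highest in EtOH replicate 2 (-0.39, SE 0.26, edgeR adjusted p = 0.674). *SYP*, synaptophysin itself, ran the other way across libraries, with 27.3, 9.88 and 30.0 CPM in EtOH and 22.8, 21.1 and 66.2 CPM in Tet. Its difference of 0.71 (SE 0.52) was -0.03 without Tet replicate 3.

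No SNARE gene passed the test. *SNAP25* was at 76.8, 44.2 and 80.0 CPM in EtOH and 86.5, 74.5 and 96.7 CPM in Tet. Only Tet replicate 2 fell inside the EtOH range (0.36, SE 0.24, edgeR adjusted p = 0.665). The vesicle SNAREs *VAMP1* and *VAMP2* averaged 4.36 and 12.0 CPM and had changes of opposite sign, 0.41 (SE 0.41) and -0.37 (SE 0.45). They share 10.37% and 12.43% of their exon bases with other genes, and *STX1A* shares 17.93%. The synapsins, which tether vesicles to the cytoskeleton, were led by *SYN2* at 41.4 CPM (-0.14, SE 0.22), with *SYN3* at 3.57 CPM (-0.77, SE 0.46) and *SYN1* at 2.22 CPM (0.20, SE 0.56). *SYN1* was at 0.577 CPM in EtOH replicate 2 and between 1.61 and 3.29 CPM in the others, and 25.07% of its exon bases lie in other genes.

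In the RAB3 cycle, *RAB3C* was at 115.5, 76.6 and 123.9 CPM in EtOH and 131.0, 130.1 and 126.4 CPM in Tet. The Tet libraries were close together and all above EtOH, by 0.29 (SE 0.19, edgeR adjusted p = 0.665), whereas on the TPM scale Tet replicate 3 (32.0 TPM) lay under EtOH replicates 1 and 3 (32.4 and 35.0 TPM). *RAB3B* was at 113.4, 89.5 and 101.3 CPM in EtOH and 104.2, 85.2 and 98.7 CPM in Tet, so the ranges overlapped in part (-0.08, SE 0.16). *RAB3A*, the main brain isoform, had 24, 1 and 11 counts in EtOH and 8, 13 and 88 in Tet. Tet replicate 3 held most of its reads, and the value of 1.40 (SE 0.97, edgeR adjusted p = 0.685) turned to -0.15 without that library.

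Of the 4 endocytosis genes, 2 had all Tet libraries above EtOH, as had 9.2% of all genes. *SNAP91*, the clathrin adaptor AP180 (chr6:83552880-83709691, minus strand), was at 27.2, 19.0 and 28.1 CPM in EtOH and 39.0, 29.2 and 35.0 CPM in Tet. The lowest Tet library was close to the highest EtOH library, and the change of 0.47 (SE 0.20, unadjusted p = 0.0470) had an edgeR adjusted p of 0.456. *SYNJ1*, the phosphatase that strips clathrin coats, was at 65.1, 62.1 and 64.2 CPM in EtOH and 84.0, 82.8 and 66.6 CPM in Tet. Tet replicate 3 lay just above EtOH (0.29, SE 0.15, edgeR adjusted p = 0.558), and on the TPM scale it lay below it. Dynamin *DNM1* (-0.46, SE 0.34) and amphiphysin *AMPH* (-0.19, SE 0.26) averaged 13.4 and 11.2 CPM and were not called.

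Within most families the same paralog led in every library. *SYN2* held 83.3% to 92.6% of synapsin TPM, *CPLX2* 89.3% to 97.8% of complexin TPM, *RIMS2* 84.8% to 88.4% of the RIM pair, and *RAB3C* 53.1% to 66.3% of the RAB3 genes. In 3 families the lead changed. *SYT11* passed *SYT1* among the 7 listed synaptotagmins in Tet replicate 3 alone (40.6% against 39.1%), and *UNC13A* passed *UNC13B* there (51.0% against 49.0%). *SV2A* led in EtOH replicates 1 and 3 and Tet replicate 3 (61.5%, 58.6% and 52.6%), and *SV2C* led in EtOH replicate 2 and Tet replicates 1 and 2 (70.5%, 63.6% and 66.1%), a division that did not follow the labels. *SYT2* made up 1.80% ± 0.135 of the TPM of the 7 listed synaptotagmins in EtOH and 0.739% ± 0.144 in Tet (SD, n = 3 each), with no overlap. *PCLO* made up 51.5% to 62.2% of the TPM of the scaffolds *PCLO*, *ERC2* and *BSN* in EtOH and 67.9% to 74.0% in Tet. These shares were computed from the values described above and were not tested.

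Libraries of the same label differed strongly over these genes. EtOH replicate 2 was the lowest EtOH library in 29 of the 34 genes (85.3%, against 45.8% of all genes). It was the lowest of all 6 in 25, a count for which the share over all genes was not computed. Measured from each gene's mean over the 6 libraries, the median log2 CPM of the 34 genes was 0.11, -0.62 and 0.10 in EtOH replicates 1 to 3 and -0.02, -0.07 and 0.28 in the corresponding Tet libraries. Tet replicate 3 was the highest Tet library in 19 genes (55.9%, against 40.0% of all genes).

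These deviations moved with base composition. Across the 34 genes, the deviation from the group mean ran with exon GC content at a Spearman rho of -0.52 in EtOH replicate 2 and 0.74 in Tet replicate 3, beside -0.37 and 0.47 over all 22443 genes. In the other libraries rho was 0.54 and 0.21 (EtOH replicates 1 and 3) and -0.52 and -0.50 (Tet replicates 1 and 2). For each gene the deviations within a label cancel out, so the trends of its libraries are not independent. The rho values are descriptions over genes that share a library and its depth. The 14 genes with exon GC above 50%, *SYP*, *RAB3A* and *BSN* among them, had a median deviation of -0.95 in EtOH replicate 2 and 0.51 in Tet replicate 3, and the other 20 had -0.41 and 0.01. The median log2 fold change was 0.23 in the 14 and 0.29 in the 20. With GC content corrected for in each library, *CADPS* stayed at 1.91 (edgeR adjusted p = 0.0243), *SYT2* was -1.18 and passed (0.0310), and the median of the 34 was 0.19.

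**Figure D4:**
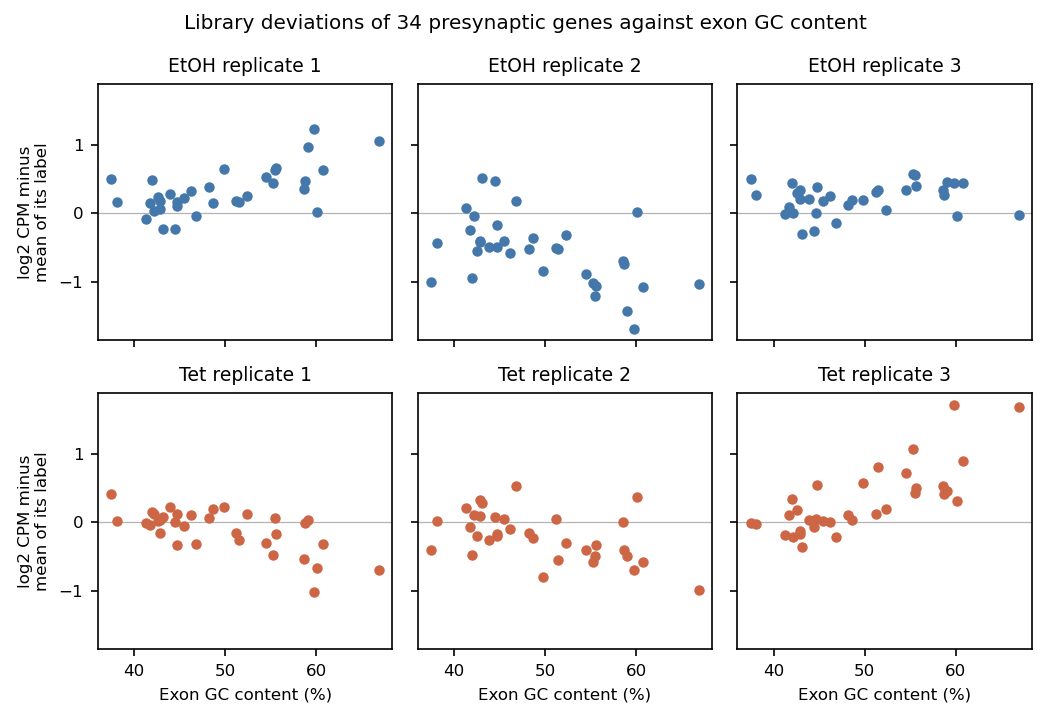
Deviation of each library from its group mean (log2 CPM, vertical) against exon GC content in percent (horizontal) for the 34 presynaptic genes tested, 1 panel a library and 1 point a gene. Points fall with GC in EtOH replicate 2 (rho -0.52) and climb with GC in Tet replicate 3 (rho 0.74).

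Upstream sequence was taken from RefSeq (GRCh38.p14) for 31 of the 38 genes, as 49 windows of the 250 bases before a transcript start. No window was matched for *SYT13*, *SNAP25*, *CADPS2*, *SYN3*, *CPLX1*, *RIMS2* and *SYT7*. The windows of the genes with the lowest p in each direction are shown, *CADPS* (chr3:62875417-62875666, minus strand) and *SYT2* (chr1:202710455-202710704, minus strand), with matches to the searched motifs in capitals.
CADPS: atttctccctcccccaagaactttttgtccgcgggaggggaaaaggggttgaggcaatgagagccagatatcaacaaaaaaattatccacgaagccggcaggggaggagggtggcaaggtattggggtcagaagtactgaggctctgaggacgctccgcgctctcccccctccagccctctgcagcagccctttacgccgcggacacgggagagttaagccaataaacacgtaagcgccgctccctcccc
SYT2: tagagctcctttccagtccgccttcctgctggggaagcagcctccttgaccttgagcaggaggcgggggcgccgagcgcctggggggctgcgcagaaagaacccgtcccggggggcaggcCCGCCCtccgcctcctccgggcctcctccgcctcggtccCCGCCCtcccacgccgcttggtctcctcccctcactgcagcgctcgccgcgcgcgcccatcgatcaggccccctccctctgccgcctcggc
Motifs were searched by their letters on both strands. The *CADPS* window, 58.0% GC, held none of them. The *SYT2* window, 74.4% GC, held the GC box, GGGCGG, at 2 places, each read on the opposite strand. It was in 59.2% of the 49 windows of these genes, spread over 24 of the 31 genes, and in 42.6% of all 35116 windows. The E-box CACGTG, the sequence MYC family proteins bind, was in 6.34% of all windows and among these genes in *UNC13A* alone. TATAAA was in 10.7% of all windows and here in *SV2B* and *SYPL1*, and the cyclic AMP response element TGACGTCA was in 1.65% and here in *SYN1*. A core of RE1, the element of the repressor REST that silences neuronal genes in other tissues, was searched as TTCAGCACC, 2 bases of any kind and GGACAG. It was in 0.0142% of all windows and here in *SYN1*, at chrX:47620067-47620096 (minus strand), shown with the match in capitals.
SYN1: gccagcTTCAGCACCGCGGACAGtgccttc
A match is a description of letters only, and no binding was measured.

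REST itself was at 87.4, 162.3 and 91.4 CPM in EtOH and 106.0, 135.5 and 109.2 CPM in Tet. Replicate 2 was the highest library in each group, the libraries in which the median of the presynaptic genes was lowest, and whether these are related was not tested. Between the labels *REST* differed by 0.04 (SE 0.25, edgeR adjusted p = 0.981). Of 12 genes for REST and its cofactors, all tested, 0 passed by edgeR, and 1 in each direction had an unadjusted p under 0.05. Over all genes tested, 5.83% were higher and 4.94% lower at that limit. *EHMT2*, a histone methyltransferase, had 6.64 CPM in Tet replicate 3 and at most 1.64 CPM elsewhere (1.66, SE 0.65). *CTDSPL*, a phosphatase listed among the cofactors, was at -0.44 (SE 0.16, unadjusted p = 0.0267 by edgeR, n = 3 each).

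Other genes of the release cycle, 121 in 5 lists with 92 tested, gave 0 calls by edgeR, with 7 higher and 2 lower at an unadjusted p under 0.05 and a median log2 fold change of 0.08. At that limit 5.83% of all genes tested were higher and 4.94% lower. In 6 of the 92 every Tet library lay above every EtOH library, and in 6 below, against 9.2% and 8.28% of all genes. Among 24 tested SNARE proteins and regulators *DNAJC5*, a vesicle chaperone, was at 1.02 (SE 0.40). It averaged 1.05 CPM in EtOH and 2.14 CPM in Tet, with groups that overlapped. Among 7 further synaptotagmins and calcium sensors *SYT14* was at 0.50 (SE 0.15), with all Tet libraries above EtOH. Of 18 RAB3, active zone and priming genes, *APBA1*, the Munc18 partner Mint1, averaged 0.361 ± 0.255 CPM in EtOH and 1.12 ± 0.297 CPM in Tet (SD, n = 3 each), and *RIMBP2*, which links RIM to calcium channels, was at 0.65 (SE 0.24). Of 25 endocytosis genes, 3 were higher and 2 lower at that limit. *DNM3*, a dynamin, was at 30.7, 28.9 and 32.1 CPM in EtOH and 48.7, 49.2 and 42.0 CPM in Tet. Its groups stood well apart, but the change of 0.61 (SE 0.15) had an edgeR adjusted p of 0.177. *BIN1* was at 0.335, 0.252 and 0.231 CPM in EtOH and 0.815, 0.282 and 2.09 CPM in Tet. Its groups overlapped and Tet replicate 3 was the highest library (1.95, SE 0.71). *STON1*, with 29.11% of its exon bases in other genes, was at -0.57 (SE 0.20). None of 18 vesicle membrane proteins and transporters reached an unadjusted p of 0.05.

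On the postsynaptic side, 0 of 13 scaffold genes passed, with 2 higher and 1 lower at an unadjusted p under 0.05 by edgeR and a median of -0.13. Over all genes tested, 5.83% were higher and 4.94% lower at that limit, the background also for the lists that follow. The lowest p of the scaffold genes was that of *SHANK2* at 0.89 (SE 0.19, edgeR adjusted p = 0.128), followed by *DLGAP4* (0.93, SE 0.38) and *DLGAP1* (-0.55, SE 0.23). Of the noradrenergic markers 8 were tested, 5 were higher at an unadjusted p under 0.05, and 1 rose past the adjusted threshold. *DDC*, which makes dopamine, was at 0.167, 0.361 and 0.198 CPM in EtOH and 3.23, 2.93 and 2.37 CPM in Tet, so every Tet library was above EtOH (3.55, SE 0.41, edgeR adjusted p = 0.0280). Mesenchymal markers gave 0 calls among 10 tested, with 2 higher and 1 lower at the unadjusted limit, *COL3A1* at 1.03 (SE 0.24), *PRRX1* at -1.02 (SE 0.34) and *SNAI2* at 1.84 (SE 0.70). The *SNAI2* groups overlapped, at 1.62, 4.87 and 0.826 CPM in EtOH and 4.96, 16.3 and 4.78 CPM in Tet. Glial markers gave 0 among 6, and 0 were under an unadjusted p of 0.05. Proliferation genes gave 0 of 20, with 4 lower at an unadjusted p under 0.05, including *AURKA* (-0.72, SE 0.16), *MCM3* (-0.72, SE 0.17) and *BUB1B* (-0.46, SE 0.19), and summed to 1303 to 2286 TPM in EtOH and 1094 to 1552 TPM in Tet. DESeq2 called 1 scaffold gene, 3 noradrenergic markers and 1 mesenchymal marker higher and 2 proliferation genes lower, and limma-voom called 1 noradrenergic marker. Neither called a glial marker, a gene of REST and its cofactors or a gene of the 5 release cycle lists. The part of these genes in the change of *CADPS* was not tested.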

How the data were processed

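Total RNA of neuroblastoma cells was depleted of ribosomal RNA and sequenced as 6 stranded, paired-end libraries. Deposited were estimated counts for each gene, not scaled for depth or length. Per the file headers, the authors aligned reads with STAR to GRCh38 and counted exon overlaps with featureCounts 1.6.4, splitting a pair that overlapped several genes evenly and ignoring strand. The labels name STAR 2.7.1a and featureCounts 1.5.1, and the study's methods give other counting options. Overlapping and antisense genes therefore share reads. In each library 12.3% to 14.7% of genes had fractional values, and these were rounded because whole counts had been assumed in the planned test. The 92 spike-in sequences were at 0 in every library and were left out. Symbols were matched to 60437 identifiers (99.6%), and 53025 of 53026 shared identifiers had the coordinates of the annotation used.

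Genes were filtered with filterByExpr, scaled by TMM and tested, Tet against EtOH, with edgeR 4.0.16 in R 4.3.3 (quasi-likelihood F test). P-values were adjusted by Benjamini-Hochberg across the tested genes, and 0.05 was the threshold. SE is the size of the log2 fold change divided by the square root of F. TPM was computed from counts and the exon length in the files. The fits were run on simulated counts with known changes. Those counts held no trend with GC content between libraries, so they do not check the fits against the trends seen here. Alternatives were DESeq2 1.42.0, limma-voom (limma 3.58.1), RLE size factors, no filter, a replicate block, each library left out, and, chosen after seeing the data, a GC correction (lowess, span 0.3). The limit of 3 counts set by a count of 0 covers counting error only. Values per library are given for presynaptic genes with an unadjusted p under 0.05, those of at least 1 CPM without overlap between groups, and the 8 highest by TPM, and for *PCLO*, *SYP* and *RAB3A*, which were chosen after their values were seen. In other lists, called genes are named, or up to 3 with the lowest unadjusted p under 0.05, with *REST* and *MYCN* in any case. The members and lists were chosen with earlier results of these data known, so no test over a list was made.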

Additional observations from a re-analysis of the deposited data

How the results depend on the processing

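Over 34 genes and 12 alternatives, 373 of 408 values kept direction and side of the threshold, 5 lost the call, 10 gained one and 20 changed sign. The fits without the filter and with DESeq2 covered 40467 genes, 38 of them presynaptic. Those with a library left out covered 22874 to 23935 genes, 34 or 35 of them presynaptic, and the other fits 22443 and 34. The number of presynaptic genes called higher was 2 without the filter (*CADPS*, *CPLX2*), 4 with the replicate block (*CADPS*, *CPLX2*, *SV2C*, *PCLO*) and 0 to 2 when a library was left out. The number lower, *SYT2* in each case, was 1 without the filter, with DESeq2, with the block and with the GC correction, and 0 to 1 with a library left out. Of all genes, 33 were called higher, against 185 without the filter, 282 with DESeq2, 421 with the block, 73 with the GC correction and 0 to 361 with a library left out. Called lower were 20, against 13 with RLE size factors, 117 without the filter, 203 with DESeq2, 254 with the block, 48 with the GC correction and 0 to 331 with a library left out. The highest counts of that range were without EtOH replicate 2, without which 19 of 35 presynaptic genes tested were above 0. The 5 lists of other presynaptic genes had 1 call, higher, with the block. The median over presynaptic genes ran from -0.06 to 0.41 with a library left out. Replicate numbers were not taken to pair libraries, since no label says that they mark a shared culture, day or batch. Deviations of same-numbered libraries correlated at 0.0603, 0.51 and 0.219, which does not decide whether the libraries were paired. The causes of these changes were not tested.

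With the GC correction *SYT7* turned to -0.04. Leaving out libraries changed the sign in *SYN1* (-0.24 to 0.69), *SYP* (-0.03 to 0.99), *RAB3A* (-0.15 to 2.21), *UNC13A* (-0.17 to 0.50), *SYT4* (-0.16 to 0.38), *VAMP1* (-0.12 to 0.67), *SV2A* (-0.19 to 0.51), *BSN* (-0.23 to 0.66), *CPLX1* (-0.58 to 1.68), *RAB3B* (-0.16 to 0.00284), *SV2B* (-0.01 to 0.51), *ERC2* (-0.25 to 0.07) and *UNC13B* (-0.00935 to 0.25), none of them called. Depth limits *SYT5*, *CADPS2* and *RPH3A*, for which no difference was detectable.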
